A study of Mus musculus with 9 samples.

Results

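Complement genes were followed in nuclei of mouse cortex and hippocampus, in brains of different age and with or without an enzyme added to the brain endothelium. The 9 genes were C1qa, C1qb, C1qc, C4b, C3, C3ar1, C5ar1, Cd59a and Csmd1, chosen by symbol among 31053 genes counted, with earlier results of these data known. Single-nucleus RNA sequencing gave counts of RNA molecules (unique molecular identifiers, UMIs) for 1 library from each of 9 male wild-type C57BL/6 mice. Every mouse had received an adeno-associated virus (AAV) with the PHP.V1 capsid by retro-orbital injection, at 8e11 viral genomes, 8 weeks before the tissue was taken. A claudin-5 promoter limits the transgene to brain endothelial cells (BECs). Young AAV-EGFP mice (5 months, n = 3) and aged AAV-EGFP mice (19 months, n = 3) carried EGFP, a fluorescent control protein. Aged AAV-B3GNT3 mice (19 months, n = 3) carried B3GNT3, a glycosyltransferase that lengthens mucin-type O-glycans of the vascular glycocalyx. By the study's methods, aged mice came from the National Institute on Aging and young mice from Jackson Laboratories. Age and supplier therefore cannot be told apart where young mice are compared. The comparisons asked which complement genes differed with age under the control virus, and which differed with B3GNT3 at the same age. Both use the aged AAV-EGFP libraries, so their opposite directions are not independent of each other, and aged AAV-B3GNT3 was therefore also set against young AAV-EGFP.

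Complement is a cascade of proteins that mark debris, microbes and synapses for removal. In its classical pathway C1q, assembled from A, B and C chains, binds a target and leads to cleavage of C4 and then of C3, whose fragments are read by receptors on phagocytes. In the brain microglia are the main source of C1q, which takes part in synapse pruning during development. C4b encodes a C4 protein. C3ar1 and C5ar1 are the receptors of the released peptides C3a and C5a. CD59, encoded by Cd59a, blocks the membrane attack complex, and CSMD1 is a very large membrane protein of neurons with complement-inhibiting domains.

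The C1q genes stand side by side on chromosome 4 of GRCm38, all on the minus strand and all protein coding. C1qa spans chr4:136895917-136898803, C1qc chr4:136889804-136893065 and C1qb chr4:136880129-136886187, with 2851 bases between C1qa and C1qc and 3616 bases between C1qc and C1qb. RefSeq promoter windows on GRCm38.p6, from 250 bases before to 50 bases after the start site, were matched for 6 of the 9 genes. The windows of C1qb (chr4:136886151-136886450, minus strand) and C1qc (chr4:136892865-136893164, minus strand) are shown because these neighbours were read together throughout, and C1qa had no entry. Each is written 5′ to 3′, with the letters GAGGAA, found in many binding sites of the myeloid factor PU.1, in capitals where they occur on either strand (as TTCCTC on the other).
C1qb: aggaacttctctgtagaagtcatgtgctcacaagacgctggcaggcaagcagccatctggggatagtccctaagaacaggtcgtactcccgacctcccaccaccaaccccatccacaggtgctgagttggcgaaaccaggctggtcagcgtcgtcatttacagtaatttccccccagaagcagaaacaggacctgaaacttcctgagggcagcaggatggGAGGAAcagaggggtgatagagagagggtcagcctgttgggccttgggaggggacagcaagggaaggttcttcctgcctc
C1qc: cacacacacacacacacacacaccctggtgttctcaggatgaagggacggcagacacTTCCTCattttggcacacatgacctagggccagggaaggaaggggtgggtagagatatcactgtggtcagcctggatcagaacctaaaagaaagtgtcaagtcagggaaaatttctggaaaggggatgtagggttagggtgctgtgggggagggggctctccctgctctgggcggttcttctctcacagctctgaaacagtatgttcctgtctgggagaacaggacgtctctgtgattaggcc
GAGGAA began 30 bases before the start site of the window in C1qb, and TTCCTC as written began 193 bases before it in C1qc. These are RefSeq start sites. The C1qc gene span given above reaches chr4:136893065, upstream of the RefSeq start site and inside the window, so the distance depends on the annotation. Of 32851 promoter windows of this length, 28.3% held GAGGAA, so a match is common. TATAAA (13.6% of windows), CCAAT (37.4%) and TTCNNNGAA (8.3%), which do not overlap GAGGAA, were found on neither strand of these windows. The matches describe letters and not bound sites.

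The libraries held 47332047 to 79964605 UMIs each. Of 77823 barcodes, 70252 nuclei were kept, with a median of 3038 to 5311 UMIs per library, and 64453 of them fell into 10 classes named from marker genes (2124 microglia, 20338 oligodendrocytes, 8324 astrocytes). Between 4 and 30 barcodes were shared by any pair of libraries. The aged AAV-EGFP libraries stood apart in all tested classes by more RNA of ribosomal proteins. In microglia this made up 1517 to 1929 counts per 1000000 (CPM) in young AAV-EGFP mice, 2612 to 3744 in aged AAV-EGFP mice and 1530 to 1990 in aged AAV-B3GNT3. In oligodendrocytes the ranges were 1172 to 1417, 1906 to 2789 and 1215 to 1433. A finer clustering also split oligodendrocytes by group. One cluster held 6731 of its 7385 nuclei from aged AAV-EGFP, and the other held 12541 of its 12952 from the remaining groups. The labels name no batch, so library handling and the aged AAV-EGFP condition cannot be told apart, and the part of either in the values below was not tested.

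The complement genes were expressed in different cell classes. Per kilobase of gene span, C1qc (61.0 CPM per kb), C1qa (40.5) and C1qb (35.4) in microglia were the highest of the levels listed here. Below them were C4b in astrocytes (5.04) and oligodendrocytes (3.56), Cd59a in BECs (5.38) and Csmd1 in excitatory neurons (4.42). This order depends on the scale. UMIs from 3′ chemistry need not grow with gene length, and it is not known whether intronic reads were counted. Per kilobase of exon Csmd1 in excitatory neurons (382 CPM per kb) was above C1qb (197), C1qa (112) and C1qc (103) in microglia. In CPM without division by length, Csmd1 in excitatory neurons (7268) was also above C1qb (215), C1qc (199) and C1qa (117) in microglia. Microglia held 39.3% of the UMIs of C1qa, 54.4% of C1qb and 49.5% of C1qc, with 0.880% of all UMIs of kept nuclei. C4b was found in oligodendrocytes (43.5% of its UMIs) and astrocytes (38.0%), in an order that differed between young and aged AAV-EGFP. Astrocytes held 53.3 to 67.7% of the C4b UMIs of young AAV-EGFP libraries and oligodendrocytes 9.56 to 22.6%. In aged AAV-EGFP oligodendrocytes held 52.3 to 60.0% and astrocytes 16.0 to 33.6%. In aged AAV-B3GNT3 replicates 1, 2 and 3 astrocytes held 47.75, 49.7 and 26.8% and oligodendrocytes 41.1, 35.5 and 54.7%. Such shares also depend on the size of each class. Astrocytes made up 13.3 to 16.5% of kept nuclei in young AAV-EGFP and 8.40 to 8.97% in aged AAV-EGFP. In aged AAV-B3GNT3 they made up 14.3, 15.3 and 7.4%. Csmd1 UMIs were mostly in excitatory (69.5%) and inhibitory neurons (16.9%), which held 51.1 and 17.7% of all UMIs. Its level in OPCs (oligodendrocyte precursor cells, 7165 CPM) was near that in excitatory neurons and above that in inhibitory neurons (5096). C3, the central component on which all pathways converge, had 10 UMIs in all kept nuclei.

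**Figure D1:**
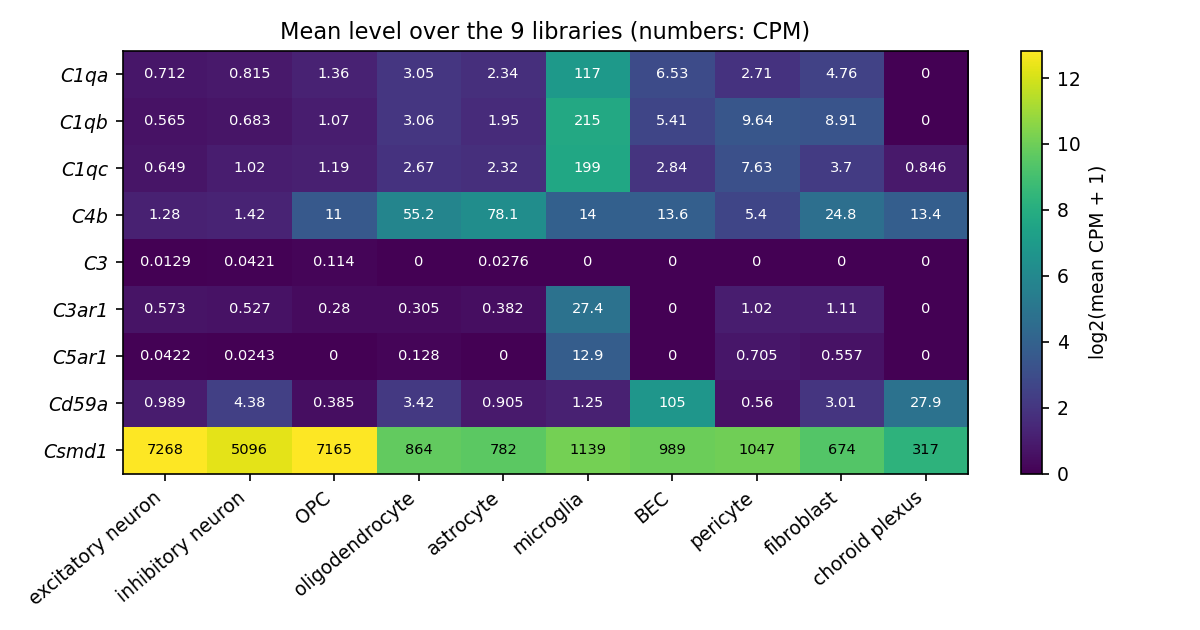
Mean level of the 9 complement genes in 10 classes of nuclei over the 9 libraries, in CPM as the number in each cell, with colour on a log scale. C1qa, C1qb and C1qc were highest in microglia (117, 215 and 199 CPM), C4b in astrocytes (78.1), Cd59a in BECs (105) and Csmd1 in excitatory neurons (7268).

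In microglia the 3 chains of C1q rose with age under the control virus and were lower with AAV-B3GNT3. C1qa was at 56.2, 50.7 and 111 CPM in young AAV-EGFP, at 177, 206 and 248 in aged AAV-EGFP and at 72.7, 70.6 and 59.5 in aged AAV-B3GNT3. All aged AAV-EGFP libraries lay above all others. The log2 fold change was 1.58 ± 0.26 (SE) with age (edgeR adjusted p = 0.000496) and -1.64 ± 0.24 under AAV-B3GNT3 (adjusted p = 0.00144). Without overlap of the groups, 12.8% of genes tested in microglia were higher with age and 9.55% lower with AAV-B3GNT3.

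C1qc was at 115, 145 and 152 CPM in young AAV-EGFP, at 174, 509 and 332 in aged AAV-EGFP and at 113, 114 and 136 in aged AAV-B3GNT3. The groups did not overlap in either comparison, but replicate 1 of aged AAV-EGFP was much closer to the other groups than were replicates 2 and 3. C1qc rose by 1.32 ± 0.27 on the log2 scale with age (edgeR adjusted p = 0.00286) and fell by 1.48 ± 0.26 under AAV-B3GNT3 (adjusted p = 0.00456).

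C1qb was at 155, 132 and 145 CPM in young AAV-EGFP, at 189, 424 and 346 in aged AAV-EGFP and at 203, 161 and 177 in aged AAV-B3GNT3. Here replicate 1 of aged AAV-EGFP lay below replicate 1 of aged AAV-B3GNT3, so the aged groups overlapped. C1qb rose by 1.15 ± 0.24 with age (edgeR adjusted p = 0.00278) and fell by 0.83 ± 0.22 under AAV-B3GNT3 (adjusted p = 0.0384).

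With Csmd1, 4 of the 5 complement genes tested in microglia changed with age and the same number with AAV-B3GNT3. Over all genes tested in microglia edgeR called 10.8% with age and 3.39% with AAV-B3GNT3. The C1qa calls were kept when any 1 of the 9 libraries was left out, as were those of C1qb and C1qc with age. The C1qb call with AAV-B3GNT3 was the weakest: it was kept in 3 of 9 such fits, and was lost without aged AAV-EGFP replicate 2 (adjusted p = 0.24) or 3 (0.125), aged AAV-B3GNT3 replicate 1 (0.0689), 2 (0.238) or 3 (0.0984), or young AAV-EGFP replicate 2 (0.0549). By DESeq2 it had an adjusted p of 0.0545. C1qc lost its call with AAV-B3GNT3 without aged AAV-B3GNT3 replicate 2 (adjusted p = 0.0661).

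Between aged AAV-B3GNT3 and young AAV-EGFP, C1qa differed by -0.07 ± 0.28, C1qb by 0.32 ± 0.24 and C1qc by -0.16 ± 0.29 on the log2 scale (edgeR adjusted p = 0.953, 0.693 and 0.895). Of the 7794 genes tested in microglia, edgeR called 0% in this comparison, with 796 at an unadjusted p under 0.05, and DESeq2 called 14, so these values do not show that the levels were equal.

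C1q was sparse in single nuclei. Any C1q UMI was found in 40.4, 40.7 and 50.7% of young AAV-EGFP microglia, in 48.0, 75.5 and 73.0% of aged AAV-EGFP and in 49.2, 38.5 and 49.6% of aged AAV-B3GNT3. All 3 chains together were seen in 0.57 to 7.72% of microglia per library. To compare shares across depths, each nucleus was thinned to 1000 UMIs, which left out 16 shallower microglia in young AAV-EGFP mice, 151 in aged AAV-EGFP mice and 37 in aged AAV-B3GNT3.

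After thinning, C1qa was seen in 3.21, 5.03 and 8.27% of young AAV-EGFP microglia, in 17.8, 19.6 and 19.4% of aged AAV-EGFP and in 7.14, 7.08 and 6.88% of aged AAV-B3GNT3. Every aged AAV-EGFP mouse had a higher share than any other mouse, and an exact permutation test over the groups gave p = 0.0143 (adjusted p = 0.0429 over 6 shares). This call was lost at 500 UMIs (adjusted exact permutation p = 0.111), with no thinning (0.0714), and without young AAV-EGFP replicate 1 or 2 (0.075) or aged AAV-B3GNT3 replicate 1 or 2 (0.0643). The share with C1qb was 13.2 to 15.04%, 17.2 to 30.4% and 14.2 to 19.7% in the same order of groups (exact permutation p = 0.05, adjusted 0.06). That with C1qc was 10.1 to 15.1%, 14.4 to 37.6% and 6.72 to 12.6% (exact permutation p = 0.0429, adjusted 0.06). In excitatory neurons, taken as the background, the thinned share of any 1 chain was at most 0.266%, and in oligodendrocytes it was at most 0.568%, at median depths of 10865 and 2132.5 UMIs before thinning. Before thinning, C1qa was seen in 8.98 to 16.4% of young AAV-EGFP, 22.5 to 30.5% of aged AAV-EGFP and 10.48 to 13.01% of aged AAV-B3GNT3 microglia.

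Other measures were read beside C1q in the microglia. Markers of microglia themselves had their highest group mean in aged AAV-EGFP. P2ry12, a purinergic receptor, had a mean of 564 CPM in young AAV-EGFP mice, 1190.5 in aged AAV-EGFP mice and 806 in aged AAV-B3GNT3 mice. The means of Inpp5d were 1959, 2685 and 2488 CPM in the same order of groups, and those of Csf1r 561, 696 and 575, of Siglech 623, 895 and 760, of Cx3cr1 511, 552 and 453 and of Tmem119 51.7, 77.0 and 75.6. The estimated share of free RNA, set loose from broken cells and captured with nuclei, was 20.1 to 40.7% in young AAV-EGFP mice, 15.7 to 24.4% in aged AAV-EGFP mice and 26.3 to 35.6% in aged AAV-B3GNT3 mice, and the values that follow are in the same order. This estimate used markers of excitatory neurons in some libraries and of inhibitory neurons in others. The 5 macrophage markers, led by F13a1 and Mrc1 with Pf4 and Lyve1 near 0, summed to 410 to 2367, 828 to 1065 and 535 to 908 CPM. The young range thus spans those of both aged groups. Without the nuclei that held a macrophage marker, a setting chosen after seeing the data, C1qa was at 1.69 with age and -1.76 with AAV-B3GNT3 (edgeR adjusted p = 0.000257 and 0.000323), C1qb at 1.20 and -0.87 (0.00315 and 0.0365) and C1qc at 1.35 and -1.49 (0.00304 and 0.00513). The 4 T cell markers, led by Skap1 with Cd3e near 0, summed to 13.1 to 131, 41.2 to 183 and 3.44 to 39.0 CPM, without overlap between the aged groups. The oligodendrocyte markers in microglia were at 636 to 876, 434 to 719 and 670 to 758 CPM. The part of the microglial and T cell marker levels, of the ribosomal protein RNA and of free RNA in the C1q differences was not tested. When an estimate of free RNA was subtracted first, C1qa was at 1.33 with age (edgeR adjusted p = 0.0838) and -1.45 with AAV-B3GNT3 (0.052), and C1qb and C1qc were also not called. That fit called 2 of 5920 genes with age in microglia.

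C1q UMIs were also counted in other classes at low level. In oligodendrocytes C1qa was at 1.2, 0.93 and 2.3 CPM in young AAV-EGFP, at 5.1, 6.7 and 4.3 in aged AAV-EGFP and at 1.6, 2.0 and 3.2 in aged AAV-B3GNT3. It rose with age (1.88 ± 0.41, edgeR adjusted p = 0.0069), where 21.9% of all genes tested in this class were called, and fell with AAV-B3GNT3 (-1.20 ± 0.36, adjusted p = 0.0487), where 10.6% were called. C1qb rose with age in oligodendrocytes (1.57, edgeR adjusted p = 0.0236), and C1qa and C1qb did so in excitatory neurons (1.80 and 1.39, adjusted p = 0.0206 and 0.0435), in a class where 14.7% of genes were called. C1qc was not called with age in oligodendrocytes (0.94, edgeR adjusted p = 0.0904), excitatory (0.93, 0.292) or inhibitory neurons (0.90, 0.275). With 1 library left out, the age call was kept in 9 of 9 fits for C1qa and 6 for C1qb in oligodendrocytes (lost without young AAV-EGFP replicate 2 or 3 or aged AAV-EGFP replicate 2, adjusted p up to 0.114), and in 6 for C1qa (lost without the same 3 libraries, adjusted p up to 0.0966) and 2 for C1qb in excitatory neurons (adjusted p up to 0.18). The call of C1qa with AAV-B3GNT3 in oligodendrocytes was kept in 1 of 9 (adjusted p up to 0.178), the fit without aged AAV-B3GNT3 replicate 3. After subtraction of free RNA, C1qa in oligodendrocytes was at 1.84 with age (edgeR adjusted p = 0.061) and -1.15 with AAV-B3GNT3 (0.209), neither of them called. In excitatory neurons it was at 2.35 with age and called (edgeR adjusted p = 0.032), and C1qb no longer passed the filter on low counts in either class.

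Summed over all libraries, the C1q UMIs of these classes were divided among the chains with 35.0% C1qa, 34.7% C1qb and 30.2% C1qc among the C1q UMIs of oligodendrocytes and 36.7, 29.2 and 34.2% in excitatory neurons, beside 21.8, 41.3 and 36.9% in microglia. The division differed between groups too, with 27.1, 34.3 and 38.6% in young AAV-EGFP oligodendrocytes and with 36.9 to 48.7% for C1qb over the groups in microglia, and a difference between classes was not tested. The change with age of C1qa in microglia minus that in oligodendrocytes was -0.12 on the log2 scale (limma adjusted p = 0.89), where 2.32% of genes differed between these classes. With all nuclei summed, C1qa rose by 1.53 with age (edgeR adjusted p = 0.0106, with 13.4% of genes called) and fell by 1.12 under AAV-B3GNT3 (adjusted p = 0.0341, with 2.66% called). The first call was lost without aged AAV-EGFP replicate 2 (adjusted p = 0.0505), and the second without that library (0.177) or aged AAV-B3GNT3 replicate 1 (0.169) or 2 (0.171). Such sums hold both the number of microglia and the C1q RNA of each. Microglia made up 1.82 to 2.66% of kept nuclei in young AAV-EGFP mice, 2.86 to 3.36% in aged AAV-EGFP mice and 3.15 to 4.17% in aged AAV-B3GNT3.

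C3 and the anaphylatoxin receptors were too rare for most tests. C3 had 3, 1 and 0 UMIs in young AAV-EGFP mice, 0, 0 and 3 in aged AAV-EGFP mice and 0, 3 and 0 in aged AAV-B3GNT3, with 0 of 2124 microglia holding a UMI, which allows a share of nuclei with a UMI of up to 0.141% and sets no limit on the share that expressed C3. It passed the filter on low counts in no class. C3ar1, the C3a receptor, had 364 UMIs in all, and was at 11.7, 27.0 and 26.0 CPM in young AAV-EGFP mice, 24.0, 29.4 and 45.5 in aged AAV-EGFP mice and 21.4, 28.9 and 32.6 in aged AAV-B3GNT3 microglia. These ranges overlap, and neither the difference with age (0.72 ± 0.43, edgeR adjusted p = 0.33) nor that with AAV-B3GNT3 (-0.28 ± 0.37, adjusted p = 0.782) passed the threshold. C5ar1, the C5a receptor, had 87 UMIs, of which 51.7% were in microglia. With 5, 2 and 8 UMIs in young AAV-EGFP mice, 1, 8 and 6 in aged AAV-EGFP mice and 1, 8 and 6 in aged AAV-B3GNT3 microglia, it did not pass the filter and a difference was not detectable at this depth.

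C4b (chr17:34728380-34743882, minus strand) rose with age in oligodendrocytes, and stayed above the young level with AAV-B3GNT3. In oligodendrocytes it was at 11.1, 5.6 and 18.2 CPM in young AAV-EGFP, at 162, 68.0 and 60.1 in aged AAV-EGFP and at 64.9, 59.7 and 48.0 in aged AAV-B3GNT3. All 6 aged libraries lay above all young ones, and replicate 1 of aged AAV-EGFP lay far above the other aged libraries. Such a rise without overlap was seen for 20% of genes tested in oligodendrocytes with age. For aged AAV-B3GNT3 against young AAV-EGFP it was 12.4%. The log2 fold change of C4b with age was 3.08 ± 0.41 (edgeR adjusted p = 0.00153). Against young AAV-EGFP the aged AAV-B3GNT3 libraries were higher by 2.34 ± 0.40 (adjusted p = 0.0128), a difference of group means in which aged AAV-EGFP enters only through the spread shared by all 9 libraries, and 1.71% of genes were called. The first call was kept when any 1 library was left out, and the second was lost without young AAV-EGFP replicate 2 (adjusted p = 0.0673). With AAV-B3GNT3 the difference was -0.74 ± 0.35 (adjusted p = 0.185). It was -0.15 without aged AAV-EGFP replicate 1 (adjusted p = 0.731) and ran from -0.99 to -0.62 when any other library was left out.

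In astrocytes C4b was at 58.8, 33.6 and 58.1 CPM in young AAV-EGFP, at 93.5, 70.7 and 84.8 in aged AAV-EGFP and at 115, 114 and 74.5 in aged AAV-B3GNT3. Every aged library was above every young one here too, by a smaller margin. Such a rise was seen for 15.3% of genes tested in astrocytes with age. For aged AAV-B3GNT3 against young AAV-EGFP it was 12.8%. C4b rose by 0.73 ± 0.22 on the log2 scale with age (edgeR adjusted p = 0.0422, with 12.2% of genes called) and by 1.03 ± 0.21 between young AAV-EGFP and aged AAV-B3GNT3 (adjusted p = 0.0205, with 2.58% called). The call with age was kept in 2 of 9 fits that left out 1 library, those without young AAV-EGFP replicate 1 or aged AAV-B3GNT3 replicate 3, with adjusted p up to 0.169 without young AAV-EGFP replicate 2. The other call was kept in 6 of 9, and was lost without young AAV-EGFP replicate 2 (0.112) or aged AAV-B3GNT3 replicate 1 (0.115) or 2 (0.0679). With AAV-B3GNT3 the difference was 0.29 ± 0.21 (adjusted p = 0.454).

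Oligodendrocyte precursor cells (OPCs) held C4b at 4.1, 5.2 and 2.3 CPM in young AAV-EGFP mice, 7.9, 15.7 and 16.8 in aged AAV-EGFP mice and 16.7, 19.5 and 10.7 in aged AAV-B3GNT3. It rose with age by 1.77 ± 0.46 (edgeR adjusted p = 0.0237, with 5.62% of genes called) and was kept in 4 of 9 fits that left out 1 library, being lost without any 1 young AAV-EGFP library or without aged AAV-EGFP replicate 2 or 3 (adjusted p up to 0.123). The rise from young AAV-EGFP to aged AAV-B3GNT3 was 1.87 ± 0.45 (adjusted p = 0.0477, with 0.793% called), kept only without aged AAV-EGFP replicate 1 or 3 (adjusted p up to 0.186). In fibroblasts C4b was at 17.6, 24.0 and 34.1, at 16.5, 3.3 and 26.9 and at 23.7, 36.3 and 41.0 CPM in the same order, with an adjusted p of 0.604 with age by edgeR. In BECs no young AAV-EGFP library held a C4b UMI and 14 UMIs were found in all, too few for the test.

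**Figure D2:**
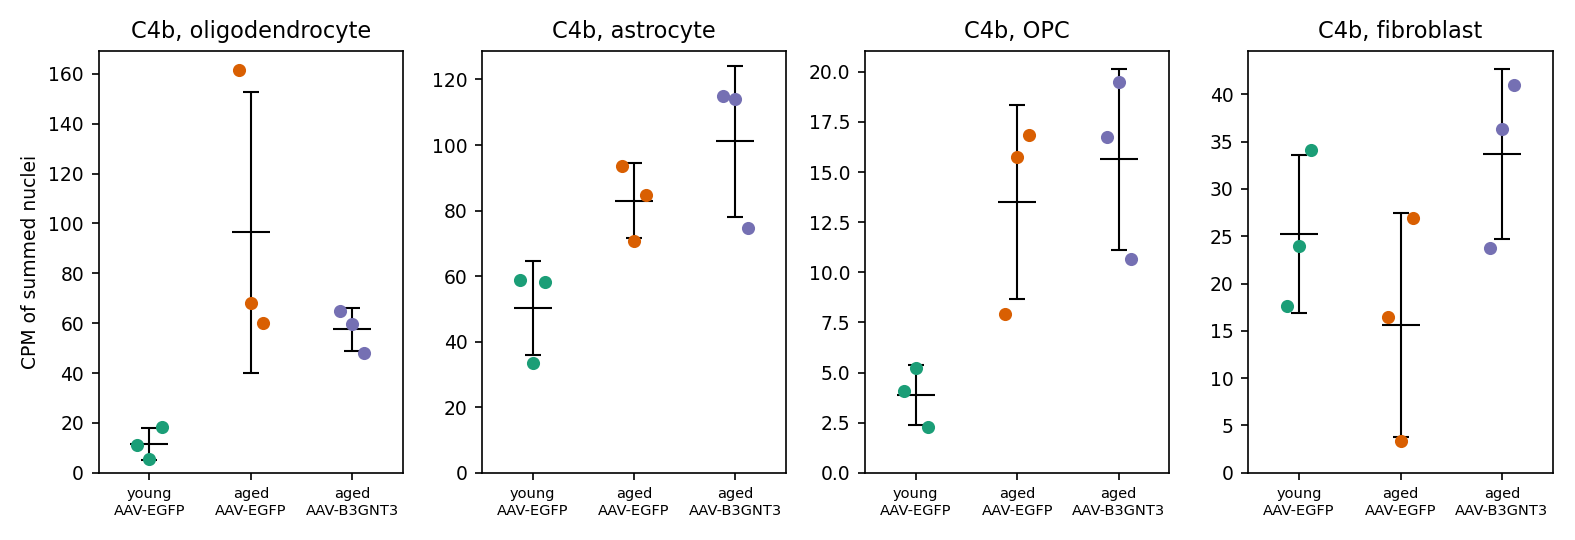
Level of C4b in oligodendrocytes, astrocytes, OPCs and fibroblasts in CPM, with 1 point per library and bars for mean ± SD of the 3 libraries in each group. In oligodendrocytes both aged groups lie above the young AAV-EGFP libraries, which are at 5.6 to 18.2 CPM, and in fibroblasts the groups overlap.

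After subtraction of free RNA, C4b in oligodendrocytes was still called with age (3.08, edgeR adjusted p = 0.0147) and between young AAV-EGFP and aged AAV-B3GNT3 (2.39, 0.0447). The calls in the other classes were lost. Astrocytes were then at 0.58 (edgeR adjusted p = 0.189) and 0.93 (0.0789) in these comparisons, and OPCs at 1.87 (0.0856) and 1.99 (0.14).

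The rise of C4b with age differed between oligodendrocytes and astrocytes by 2.26 ± 0.33 on the log2 scale (limma adjusted p = 0.0152), in a comparison where 3.31% of genes differed. This call was kept in 6 of 9 fits that left out 1 library, with differences of 1.93 to 2.54. Between oligodendrocytes and OPCs the difference was 1.58 (limma adjusted p = 0.242). After thinning to 1000 UMIs, C4b was seen in 1.26, 0.593 and 1.44% of young AAV-EGFP oligodendrocytes, in 12.8, 6.33 and 5.83% of aged AAV-EGFP and in 5.24, 5.43 and 4.50% of aged AAV-B3GNT3. The 3 groups did not overlap, with an exact permutation p of 0.00357, the smallest that 280 partitions allow (adjusted p = 0.0214). This call was lost at 500 UMIs (adjusted exact permutation p = 0.075), with no thinning (0.0714), and without aged AAV-B3GNT3 replicate 1 or 2 (0.0643). In astrocytes the shares were 3.17 to 5.89%, 6.85 to 9.26% and 7.90 to 13.5% (exact permutation p = 0.025, adjusted 0.05).

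Unthinned, 1.17 to 4.07% of young AAV-EGFP oligodendrocytes, 8.60 to 20.5% of aged AAV-EGFP and 9.17 to 11.6% of aged AAV-B3GNT3 had a C4b UMI. At least 2 UMIs were found in 0.11 to 0.38%, in 1.69 to 6.92% and in 1.93 to 2.64%. Median depth of the oligodendrocytes was 2244, 1728 and 2256 UMIs in the same order of groups. In inhibitory neurons the thinned share with C4b was at most 0.573%.

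Since the finer oligodendrocyte clusters split by group, C4b was also read within each. In the cluster that held most young AAV-EGFP and aged AAV-B3GNT3 oligodendrocytes it was at 11.0, 5.5 and 17.1 CPM in young AAV-EGFP and at 64.9, 61.9 and 48.6 in aged AAV-B3GNT3. The 179, 208 and 24 aged AAV-EGFP nuclei of this cluster gave 122, 59.5 and 18.2 CPM. In the cluster that held most aged AAV-EGFP oligodendrocytes the level was 163, 64.5 and 60.1 CPM in aged AAV-EGFP mice and 83.0, 110 and 62.6 in aged AAV-B3GNT3. Aged libraries were thus at 48.6 CPM or more in both clusters, except for the 24 nuclei of replicate 3. A near-identical gene, C4a, lies on the same chromosome (chr17:34809092-34823464, minus strand) and was not in the feature list. Of 90-base windows along the C4b transcript, 18.9% also occur in C4a, so part of the C4b count is uncertain.

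Cd59a (chr2:104095801-104115354, plus strand), the inhibitor of the membrane attack complex, had its highest level in BECs, the cells at which the transgene was aimed. There it was at 45.1, 58.8 and 78.9 CPM in young AAV-EGFP, at 67.8, 185 and 143 in aged AAV-EGFP and at 134, 118 and 116 in aged AAV-B3GNT3, from 131 UMIs in all. Replicate 1 of aged AAV-EGFP lay within the young range, and the difference with age (1.15 ± 0.39) had an edgeR adjusted p of 0.0899. Without that library it was 1.42 with an adjusted p of 0.0112, the only call among the 9 fits that left out 1 library (adjusted p up to 0.303). With AAV-B3GNT3 the difference was -0.12 (adjusted p = 0.907).

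In inhibitory neurons Cd59a was at 3.3, 3.0 and 2.8 CPM in young AAV-EGFP, at 4.8, 5.9 and 7.4 in aged AAV-EGFP and at 4.8, 3.5 and 4.0 in aged AAV-B3GNT3. It rose with age by 0.99 ± 0.24 (edgeR adjusted p = 0.0416, with 4.07% of genes called), a call kept in 3 of 9 fits that left out 1 library (adjusted p up to 0.168, without aged AAV-EGFP replicate 3) and lost after subtraction of free RNA (0.99, adjusted p = 0.0624). The finer clustering placed it mainly in 1 inhibitory cluster of 3248 nuclei, at 8.9 CPM, against 1.1 to 2.4 in the other inhibitory clusters. In the main clustering 280 of its 352 UMIs in inhibitory neurons lay in 1 cluster of 3892 nuclei (7.99 CPM). The leading genes of that cluster were Rarb, Rgs9, Gm10754 and Drd2. The class value therefore also depends on the share of these nuclei in each library, which is not given here. In oligodendrocytes Cd59a was at 1.5 to 6.3 CPM and did not pass the test with age (-0.72, adjusted p = 0.165).

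Csmd1 (chr8:15892537-17535586, minus strand) spans 1643 kb and was by far the most counted of these genes. In the classes where it was high it did not pass the test. Excitatory neurons held 6742, 7839 and 7677 CPM in young AAV-EGFP mice, 8173, 8758 and 6658 in aged AAV-EGFP mice and 6181, 6614 and 6773 in aged AAV-B3GNT3. The differences were 0.08 with age (edgeR adjusted p = 0.706) and -0.27 under AAV-B3GNT3 (adjusted p = 0.259). OPCs held 7211, 7381 and 7330, then 8425, 9003 and 6816, then 5859, 6192 and 6264 CPM, with differences of 0.15 (adjusted p = 0.558) and -0.40 (adjusted p = 0.116). All aged AAV-B3GNT3 OPC values lay below those of the other groups. Without overlap of the groups, 9.75% of genes tested in OPCs were lower with AAV-B3GNT3 and 9.27% lower than in young AAV-EGFP. Without aged AAV-EGFP replicate 3 the difference under AAV-B3GNT3 was -0.51 with an edgeR adjusted p of 0.00771. That was the only call among the 9 fits that left out 1 library (adjusted p up to 0.385). In inhibitory neurons the level was 4467 to 6408 CPM, with differences of 0.17 (adjusted p = 0.508) and -0.32 (adjusted p = 0.271).

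In the 6 classes where it was low, Csmd1 fell with age. In astrocytes it was at 1189, 1194 and 1246 CPM in young AAV-EGFP, at 474, 424 and 325 in aged AAV-EGFP and at 575, 971 and 642 in aged AAV-B3GNT3. The groups did not overlap, and aged AAV-B3GNT3 lay between the others. Of genes tested in astrocytes, 14.8% were lower with age and 12.1% higher with AAV-B3GNT3 without overlap. The change of Csmd1 was -1.57 ± 0.20 with age (edgeR adjusted p = 0.000548) and 0.84 ± 0.19 under AAV-B3GNT3 (adjusted p = 0.0222, with 5.51% of genes called).

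In oligodendrocytes Csmd1 was at 1172, 1140 and 1142 CPM in young AAV-EGFP, at 543, 660 and 345 in aged AAV-EGFP and at 749, 1215 and 806 in aged AAV-B3GNT3. Replicate 2 of aged AAV-B3GNT3 was above the young libraries, and replicate 3 of aged AAV-EGFP was the lowest. Microglia held 1614, 1598 and 1472, then 799, 804 and 434, then 1052, 1487 and 995 CPM. The fall with age was 1.16 to 1.57 on the log2 scale over microglia, oligodendrocytes, astrocytes, BECs, pericytes and fibroblasts, with edgeR adjusted p of 0.000512 to 0.012, and 7.37% of genes were called in BECs, 11.4% in pericytes and 5.69% in fibroblasts. The BEC call was lost without aged AAV-EGFP replicate 3 (-1.20, adjusted p = 0.0533), and the other 5 were kept when any 1 library was left out.

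With AAV-B3GNT3 Csmd1 rose by 0.80 to 1.05 in 5 of these 6 classes, and in fibroblasts the difference was 0.81 (edgeR adjusted p = 0.0779). Of all genes tested, 3.07% were called with AAV-B3GNT3 in BECs and 2.78% in pericytes. The size and the calls of these rises rested in part on single libraries. Without aged AAV-EGFP replicate 3 the rise was 0.56 in microglia (adjusted p = 0.131), 0.62 in oligodendrocytes (0.081), 0.70 in astrocytes (0.0638), 1.03 in BECs (0.113) and 0.82 in pericytes (0.18). Without aged AAV-B3GNT3 replicate 2 it was 0.58 to 0.83 in the same classes, with adjusted p of 0.127 to 0.245. Over all fits that left out 1 library the call was kept in 7 of 9 in microglia, oligodendrocytes and pericytes and in 6 in astrocytes, where it was also lost without aged AAV-EGFP replicate 2 (adjusted p = 0.0757). In BECs it was kept in 2 of 9, those without young AAV-EGFP replicate 1 or aged AAV-EGFP replicate 1. With no upper limit on genes per nucleus, Csmd1 in microglia was at -0.42 with age (adjusted p = 0.493) and at -0.32 under AAV-B3GNT3 (adjusted p = 0.795), and in BECs at -0.51 (adjusted p = 0.511) and 0.35 (adjusted p = 0.722).

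Between aged AAV-B3GNT3 and young AAV-EGFP, edgeR called Csmd1 in 0 of 9 classes, with 3 at an unadjusted p under 0.05. The largest difference was in astrocytes (-0.73 ± 0.19, edgeR adjusted p = 0.0583), where DESeq2 gave an adjusted p of 0.0106.

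**Figure D3:**
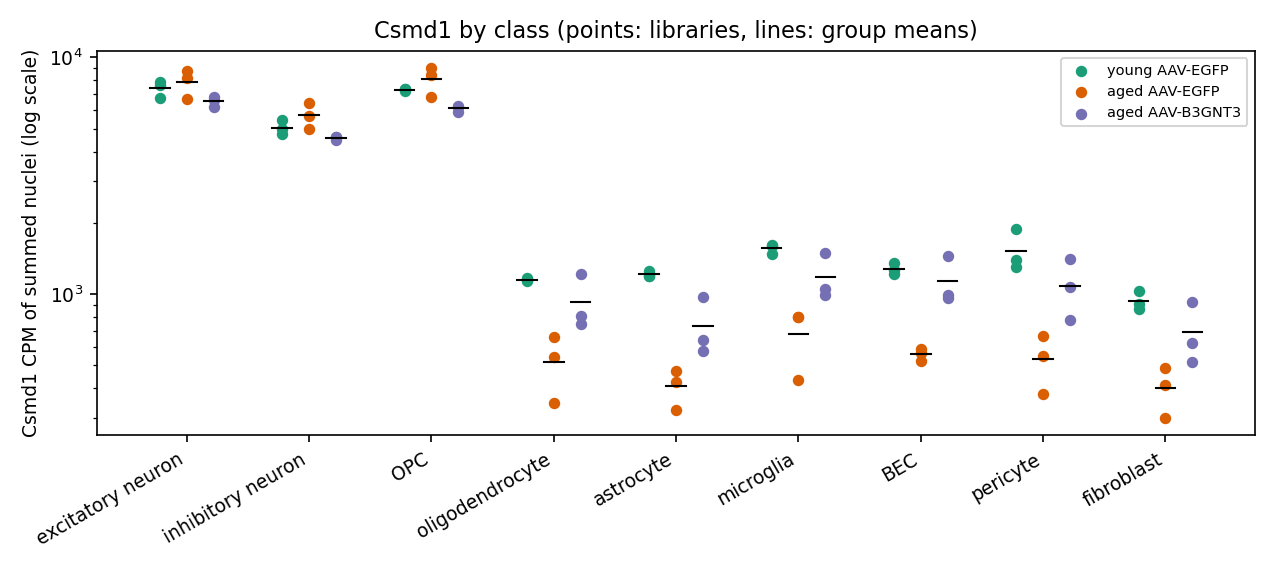
Level of Csmd1 by class of nuclei in CPM on a log axis, with 1 point per library and the mean of the 3 libraries in each group. In excitatory neurons, inhibitory neurons and OPCs the libraries lie at 4467 CPM or more, while in astrocytes aged AAV-EGFP lies at 325 to 474 CPM, below young AAV-EGFP at 1189 to 1246.

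The fall of Csmd1 with age differed between oligodendrocytes and OPCs by -1.34 ± 0.22 on the log2 scale (limma adjusted p = 0.0135, in a comparison with 4.02% of genes called), a call kept in 6 of 9 fits that left out 1 library. Of 7378 genes, those with a level pattern most like that of Csmd1 over the 10 classes were Lrrtm4 (Pearson r = 0.9935), Fam19a2 (0.9934) and Dpp10 (0.9887). Lrrtm4, a synaptic adhesion protein, was at 772 to 958 CPM in young AAV-EGFP oligodendrocytes, at 229 to 366 in aged AAV-EGFP and at 493 to 889 in aged AAV-B3GNT3. In OPCs it was at 3413 to 3891, 4216 to 4724 and 4220 to 5270 CPM. Aged AAV-EGFP thus lay below young AAV-EGFP in oligodendrocytes and above it in OPCs. For Fam19a2 and Dpp10 aged AAV-EGFP was also below young AAV-EGFP in oligodendrocytes (32.7 to 60.3 against 132 to 148 CPM and 91.8 to 143 against 272 to 282), but in OPCs the groups overlapped (551 to 713 against 631 to 771 and 971 to 1059 against 924 to 1019). In excitatory neurons the ranges of Lrrtm4 overlapped, at 3228 to 4636, 2955 to 3963 and 2660.2 to 3975 CPM. The estimated free RNA in astrocytes was 23.9 to 27.6%, 16.1 to 24.9% and 20.6 to 23.2%. Oligodendrocytes had 25.6 to 31.5%, 20.5 to 32.3% and 25.8 to 28.2%. Young and aged AAV-EGFP overlapped only through aged AAV-EGFP replicate 2 (24.9% in astrocytes, 32.3% in oligodendrocytes). Its replicates 1 and 3 (20.4 and 16.1% in astrocytes, 22.5 and 20.5% in oligodendrocytes) lay below every young library. For astrocytes the estimate used oligodendrocyte markers in aged AAV-EGFP and excitatory neuron markers in the other groups. For aged AAV-EGFP oligodendrocytes it used a different marker list in each replicate. After subtraction of free RNA, Csmd1 passed the filter on low counts in excitatory neurons, inhibitory neurons and OPCs only, so none of the 6 falls could be tested after it. The part of free RNA in the falls was not tested further.

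Over the 9 tested classes the 9 genes gave 31 pairs of gene and class that passed the filter on low counts, and 17 of them were called with age by edgeR (11 higher, 6 lower), where 11% of all pairs of gene and class were called. With AAV-B3GNT3, 9 were called (5 higher, 4 lower), where 3.72% were. Between aged AAV-B3GNT3 and young AAV-EGFP, 3 were called, all of them C4b and all higher, where 1.51% were. The median log2 fold change of the 31 pairs was 0.73 with age and -0.36 with AAV-B3GNT3, and Csmd1 accounts for 9 of them. A pair could pass the filter through the group where the gene is high, so these counts describe the genes that could be tested. C1qa, C1qb and C1qc were tested in 3, 3 and 4 classes, C4b in 6, Cd59a in 4, C3ar1 in 2 and C3 and C5ar1 in none.

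**Figure D4:**
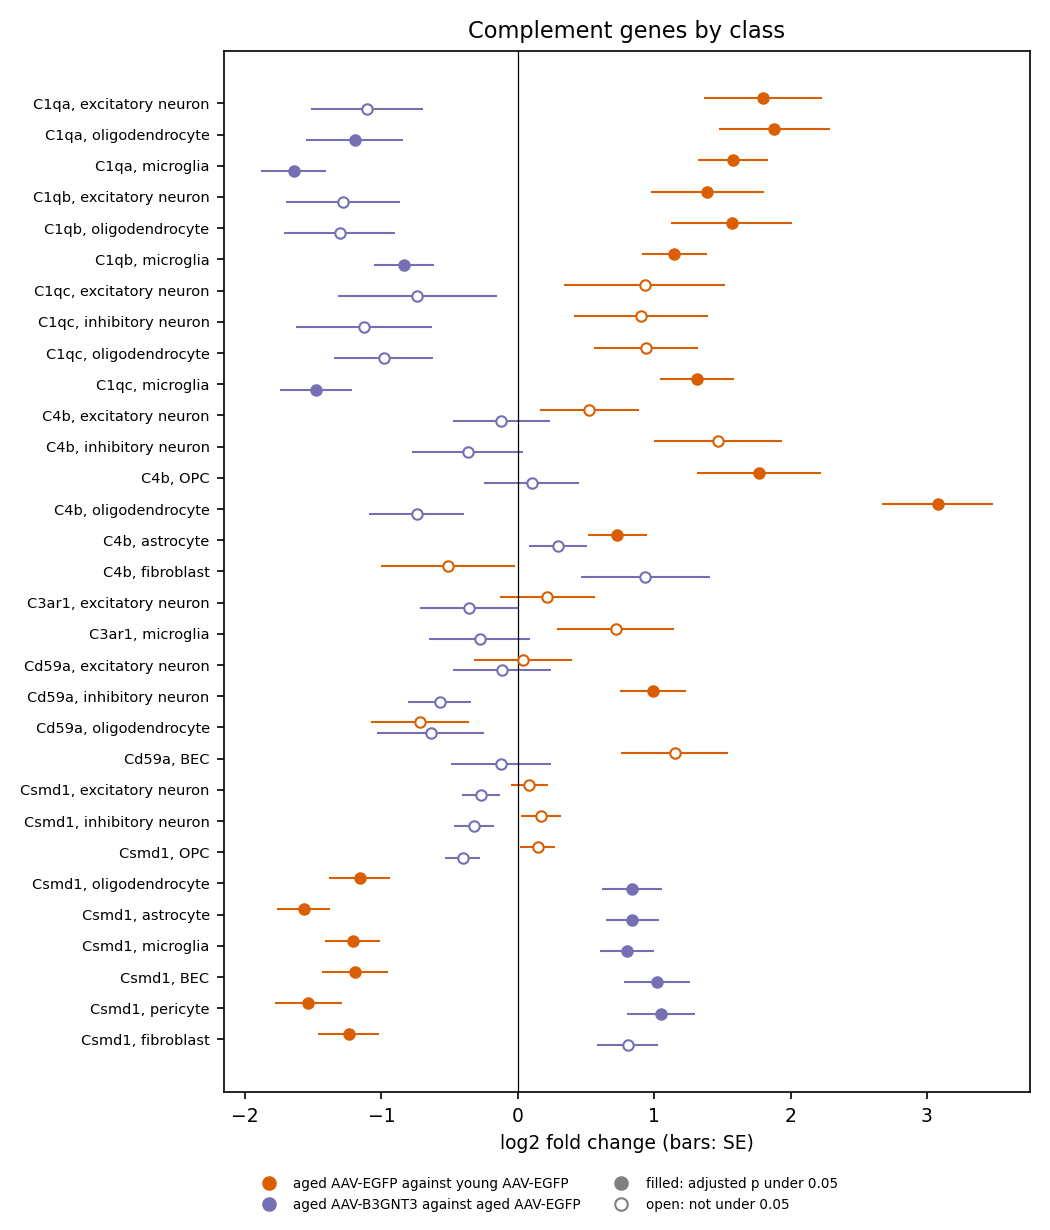
Log2 fold change ± SE from edgeR for the complement genes tested in each class, with age (aged AAV-EGFP against young AAV-EGFP) and with AAV-B3GNT3 (aged AAV-B3GNT3 against aged AAV-EGFP), and filled points for an adjusted p under 0.05. C1qa in microglia lies at 1.58 and -1.64, C4b in oligodendrocytes at 3.08 and -0.74 and Csmd1 in astrocytes at -1.57 and 0.84.

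The wider complement system was read from a list of 51 further genes of the pathways and their regulators, of which 50 were counted. In microglia 14 passed the filter on low counts. With age 0 were higher and 2 were lower by edgeR, Csmd2 (-1.64) and Sez6l (-1.29), which share a kind of domain with Csmd1, where 10.8% of all genes tested in microglia were called. At an unadjusted p under 0.05, 1 was higher, and DESeq2 called 0 as higher. With AAV-B3GNT3, where edgeR called 3.39% of all genes, edgeR and DESeq2 called 0 of the list, with 4 at an unadjusted p under 0.05 in edgeR. The median log2 fold change of the list with age was -0.22, beside 0.01 over all genes tested.

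In oligodendrocytes 17 were tested. With age Cr2, a complement receptor for C3 fragments, was higher (2.31), and Susd4 (-0.97), Sez6l (-1.03) and Cfp, which encodes properdin (-0.98), were lower, so 1 was higher and 3 were lower by edgeR where 21.9% of all genes tested were called. The share of the list is near that background. Cr2 was at 4.65 ± 1.82 CPM (SD, n = 3) in young AAV-EGFP mice, 23.1 ± 2.75 in aged AAV-EGFP mice and 8.34 ± 6.46 in aged AAV-B3GNT3. With AAV-B3GNT3 Calr, an endoplasmic reticulum chaperone that can bind C1q, was lower (-0.79), the 1 gene of the list called where 10.6% of all genes were. The list's median with age was 0.06, beside 0.02 over all genes.

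Of 16 tested in astrocytes, 2 were higher and 5 lower with age by edgeR, and 3 were higher and 1 lower with AAV-B3GNT3. Over all genes tested in astrocytes 12.2% were called with age and 5.51% with AAV-B3GNT3. Clu, which encodes clusterin, an inhibitor of the membrane attack complex, was at 148 ± 31.4 CPM (SD, n = 3) in young AAV-EGFP mice, 232 ± 52.3 in aged AAV-EGFP mice and 127 ± 19.1 in aged AAV-B3GNT3. It rose by 0.65 with age and fell by 0.87 with AAV-B3GNT3. C8b, a chain of the membrane attack complex, rose from 0.43 to 3.94 CPM (3.09 on the log2 scale) and was at 3.76 in aged AAV-B3GNT3. It was also called with age in excitatory (2.33) and inhibitory neurons (2.12), and between young AAV-EGFP and aged AAV-B3GNT3 in excitatory neurons (2.66), classes named for it after its values were seen. Csmd2 (-1.72), Susd4 (-1.70), Csmd3 (-1.26), Sez6l (-1.15) and Cr1l (-0.45) fell with age, and Susd4 (1.24), Sez6l (0.97) and Csmd2 (0.71) rose with AAV-B3GNT3. Between young AAV-EGFP and aged AAV-B3GNT3, Csmd2 (-1.01) and Calr (-0.90) were lower in astrocytes, where 2.58% of all genes were called. Calr was also lower in this comparison in OPCs (-1.05), excitatory (-0.81) and inhibitory neurons (-0.92), classes named after its values were seen, where 0.793, 3.85 and 0.782% of genes were called. The list's median with age was -0.24, beside 0.03 over all genes.

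Across the 10 classes the genes with the level pattern most like C1qc were Laptm5 (Pearson r = 0.9943), Pld4 (0.9932) and Tyrobp (0.9932), all highest in microglia. For C1qb they were Dctn5 (0.9945), 3110043O21Rik (0.9808) and Siglech (0.9794), and for C1qa Erp29 (0.9838), Dctn5 (0.9801) and Scoc (0.9799). Nearest to C4b were Csrp1 (0.9482), Lap3 (0.9467) and Rnf20 (0.9464). Those nearest to Cd59a, all highest in BECs, were Dnah3 (0.9408), Nos3, the endothelial nitric oxide synthase (0.9364), and Sema3c (0.9289). The 10 points of each correlation share their libraries and differ in depth, so the values are a description.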

How the data were processed

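Nuclei of frozen cortex and hippocampus had been sorted as Hoechst-positive singlets and sequenced with 10x 3′ v3.1 chemistry. The deposited values are raw UMI counts of each gene in each nucleus, made by the authors with Cell Ranger against GRCm38. The file headers give Cell Ranger 7.2.0, the submitters' processing notes 4.0.0, and whether intronic reads were counted is not given in the sources used here. The study's removal of free RNA and doublets is not part of these counts. The members and gene lists were chosen with earlier results of these data known. All 9 members were described, and of the wider list those called in microglia, oligodendrocytes or astrocytes, with other classes named after their values were seen.

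Kept nuclei had 200 to 5000 genes and no more than 10% mitochondrial UMIs, and likely doublets were removed by a simulated-doublet score at 0.8% per 1000 barcodes (5.07 to 8.21% of barcodes per library). The upper limit on genes removed 2923 barcodes. Nuclei were clustered on 2000 variable genes, without the complement genes, with 15 principal components, 20 neighbours and the Leiden method (igraph 0.11.9) at a resolution of 0.3. Clusters were named when at least 3 fixed markers stood at 2 times the median cluster in at least 10% of nuclei. The rules that left a cluster unnamed when it also carried another class's markers were set after the clusters were seen. No cluster was named macrophage or T cell. The summed level of the microglial markers is not reported here.

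Counts were summed per library and class, passed through filterByExpr (minimum count 10) and TMM scaling, and tested with edgeR 4.0.16 (quasi-likelihood, two-sided), with all 9 libraries in 1 fit per class. P-values were adjusted by the Benjamini-Hochberg method over all genes of a class, with a threshold of 0.05. The CPM values use TMM-scaled totals, except in choroid plexus (172 nuclei), which was not tested, and in marker, ribosomal and neuronal comparison values, which use raw totals. Changes in pairs of classes were compared by limma 3.58.1 on log2 CPM differences per library (prior count 2). Shares of nuclei were compared with the F statistic in an exact permutation test of all 280 partitions, adjusted over 6 shares. The ± values of changes are standard errors from the fits and those of levels are SDs over libraries, so both include spread between libraries. The upper limit given for C3 covers counting error only. The labels give 1 library per mouse, and libraries were compared for duplicates (chi-square per degree of freedom between replicates 1.70 to 3.60 in microglia), of which there were none. The edgeR and limma steps were tested on simulated data with known changes. Genes were placed with GENCODE vM21 on GRCm38. Alternatives were DESeq2 1.42.0, RLE size factors, no low-count filter, doublets kept, no upper limit on genes, a resolution of 1.0, complement genes kept for clustering, a mitochondrial limit of 1%, subtracted free RNA, fits of only the groups compared, a replicate block and leaving out each library. An alternative without nuclei holding macrophage markers was added after seeing the data.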

Additional observations from a re-analysis of the deposited data

Results flagged for a closer look

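C4b rose more with age in oligodendrocytes than in astrocytes, and the difference between the classes was itself tested. The rise in oligodendrocytes exceeded that in astrocytes by 2.26 ± 0.33 on the log2 scale (limma adjusted p = 0.0152), and every aged library was above every young one in both classes. With AAV-B3GNT3 the same difference was -0.87 (limma adjusted p = 0.281). A rise with age without overlap was seen for 20% of genes tested in oligodendrocytes and 15.3% in astrocytes.

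The change of Csmd1 with age differed between oligodendrocytes and OPCs. It fell by 1.16 on the log2 scale in oligodendrocytes, and in OPCs the difference with age was 0.15 ± 0.13 (edgeR adjusted p = 0.558). The change in oligodendrocytes minus that in OPCs was -1.34 ± 0.22 (limma adjusted p = 0.0135), and with AAV-B3GNT3 it was 1.25 (limma adjusted p = 0.0523).

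C1q RNA was also high in nuclei outside the named classes, which entered the sums over all nuclei but no comparison within a class. A cluster of 328 nuclei, left without a name because it carried oligodendrocyte and microglial markers together, held 53.4 CPM of C1qa, 81.8 of C1qb and 90.1 of C1qc, beside 48.5 of C4b. Its mean doublet score was 0.663, and its nuclei were not counted among the microglia or the oligodendrocytes.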

How the results depend on the processing

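Over the settings other than leaving out a library, 732 of 783 values for a single gene and class kept their direction and their side of the threshold, 37 lost and 8 gained a call and 6 turned in direction; DESeq2 gave no adjusted p for 9 others. When 1 library was left out, 572 of 684 did so, 89 lost and 7 gained a call and 16 turned in direction. Of the 17 pairs of gene and class called with age, the number became 2 with free RNA subtracted, where 19 of 31 pairs could be tested, and 11 to 17 when 1 library was left out. The 9 called with AAV-B3GNT3 became 5 with only the groups compared in the fit, 5 with no upper limit on genes, 0 with free RNA subtracted and 1 to 9 when 1 library was left out, and the 3 between aged AAV-B3GNT3 and young AAV-EGFP became 5 with no filter on low counts, 1 with free RNA subtracted and 0 to 4. DESeq2 called 15, 8 and 3. Direction turned for Cd59a in excitatory neurons with age (-0.056 with no upper limit on genes) and, with AAV-B3GNT3, for C4b in OPCs (-0.19 at a resolution of 1.0, -0.14 with no doublet removal), Csmd1 in microglia (-0.32 with no upper limit on genes) and Cd59a in BECs (0.13 with no upper limit on genes, 0.074 with free RNA subtracted), none of them called there. Ranges that crossed 0 when 1 library was left out included -0.096 to 0.21 for Cd59a and -0.0022 to 0.19 for Csmd1 in excitatory neurons with age, and, with AAV-B3GNT3, -0.39 to 0.21 for Cd59a and -0.42 to 0.24 for C4b in excitatory neurons, -0.61 to 0.072 for C4b in inhibitory neurons, -0.11 to 0.38 for C4b in OPCs, -0.45 to 0.055 for C3ar1 in microglia, -0.40 to 0.12 for Cd59a in BECs and -0.043 to 0.65 for C4b in all nuclei; C1qa in microglia between aged AAV-B3GNT3 and young AAV-EGFP ran from -0.26 to 0.31. Adjusted exact permutation p-values of shares were 0.111 for C1qa, 0.0214 for C1qb, 0.479 for C3ar1 (with the direction turned) and 0.075 for C4b in oligodendrocytes at 500 UMIs, and 0.0714 for C1qa and for C4b in oligodendrocytes with no thinning. When 1 library was left out they ran from 0.0214 to 0.075 for C1qa, 0.0143 to 0.146 for C1qb, 0.0143 to 0.103 for C1qc, 0.0143 to 0.0643 for C4b in oligodendrocytes and 0.0214 to 0.15 for C4b in astrocytes. Differences between classes then ran from 1.93 to 2.54 for C4b in oligodendrocytes minus astrocytes and -1.47 to -1.20 for Csmd1 in oligodendrocytes minus OPCs with age, and 1.07 to 1.37 for the latter with AAV-B3GNT3. The cause of these shifts was not tested. Replicate numbers do not pair the mice: deviations of same-numbered libraries correlated at -0.238 to 0.306, with 13 of 81 pairs above 0.1, and in microglia 4 of 9 libraries correlated best with their own number. A replicate block called 16 with age, 9 with AAV-B3GNT3 and 3 in the third comparison. At a resolution of 1.0 no fibroblast class was named. The 134 to 353 microglia per library, and 15 C5ar1 UMIs per group, limit what could be detected for rare genes.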

Other observations

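Other complement genes outside microglia, oligodendrocytes and astrocytes also differed, and are named here after their values were seen. Vtn, which encodes vitronectin, a plasma and matrix protein that blocks the membrane attack complex, was at 507 ± 35.3 CPM (SD, n = 3) in pericytes of young AAV-EGFP mice, 1465 ± 262 in aged AAV-EGFP mice and 614 ± 112 in aged AAV-B3GNT3. It rose by 1.55 on the log2 scale with age and fell by 1.28 with AAV-B3GNT3 (edgeR adjusted p = 9.42e-05 and 0.00143). Of the 6 genes of the list tested in pericytes, Csmd2 (-1.61), Csmd3 (-1.05) and Cr1l (-0.99) fell with age, where 11.4% of all genes tested were called. In fibroblasts Vtn rose by 1.04 and fell by 1.19. Masp1, a protease of the lectin pathway, rose with age in fibroblasts by 2.17, from 5.67 ± 2.43 to 26.3 ± 3.99 CPM (SD, n = 3), and was at 15.7 ± 3.91 in aged AAV-B3GNT3. In OPCs Cr2 rose by 1.65 with age and fell by 2.19 with AAV-B3GNT3. Of 30 genes of the list tested in excitatory neurons, C8b, C1s1 (1.34), Cr2 (1.26) and C7 (0.96) rose and Cfp (-0.81) and Sez6l (-0.74) fell with age, where 14.7% of all genes were called. In inhibitory neurons C8b rose and Cfp (-0.72) fell. Ribosomal protein RNA in pericytes was 1283 to 2153 CPM in young AAV-EGFP mice, 2655 to 3606 in aged AAV-EGFP mice and 1273 to 2277 in aged AAV-B3GNT3, and its part in these differences was not tested.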
